A study of Mus musculus with 4 samples.

Results

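The 10 genes *Cldn5*, *Esam*, *Cdh5*, *Kdr*, *Flt1*, *Pecam1*, *Emcn*, *Stab2*, *Plvap* and *Tie1* mark the vessel lining of bone marrow and were followed over 4 mouse arrays. They are 10 of 29353 named genes on the array and have 12 of its 40628 probes for named genes. Members were found by gene name in the spot files, which gave 9 genes with 11 probes. *Esam* carries the older name Esam1 there and was added through its RefSeq accession, with 1 probe. *Cdh5* and *Flt1* have 2 probes each, the other 8 genes 1 each, and every probe has 1 spot per array.

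The arrays hold RNA of cells sorted from the bone marrow of mice aged 7 weeks, with the strain given as C57BL6/J. LSK cells are the Lin-Sca-1+c-kit+ cells, the fraction that holds the blood stem and early progenitor cells, and the CD45-negative cells are called niche cells in the labels. Day 0 cells came from healthy mice without irradiation or transplant. Day 10 cells came from recipient mice given 700 cGy of radiation and then 30000 LSK cells, where donor cells were CD45.2 and recipient mice CD45.1, 2 forms of a surface protein of blood cells. The stromal cells are described both as CD45.1-negative and as CD45-negative, so the antibody form is uncertain, and a CD45.1 gate would not remove CD45.2 cells. The strain of the CD45.1 recipients is uncertain too. Sex and pooling of mice are not given in the sources used here. Each group has 1 array, so no difference has a test, a replicate spread or a standard error, and each compares 2 arrays. Errors given as "spot error" are the scanner software's own error of a spot, combined for the 2 arrays, and cover that array measurement only.

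Endothelial cells line the vessels and are held to each other by junctions built from cadherins, claudins and immunoglobulin-like adhesion molecules. Vascular endothelial growth factors act on them through tyrosine kinase receptors, among them those encoded by *Kdr* and *Flt1*. In marrow much of the vessel bed consists of sinusoids, wide leaky vessels through which blood cells leave, whose lining takes up material through scavenger receptors such as stabilins. These genes are not all confined to endothelium: *Pecam1* is also made by platelets and many leukocytes, and *Esam* and *Emcn* also mark blood stem cells.

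The probe is the stretch of transcript that each value rests on. That of *Pecam1* is printed because it gave the largest measured day difference, and that of *Tie1* because it was dark in both CD45-negative samples. The spot files give no mapped position for either.

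Pecam1 probe: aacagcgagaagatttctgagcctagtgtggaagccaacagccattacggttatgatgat

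Tie1 probe: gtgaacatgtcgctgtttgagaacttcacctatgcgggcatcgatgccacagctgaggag

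Promoters were read for the members in RefSeq's promoter table (build GRCm38.p6), which held 6 of the 10 genes, not *Esam*, *Cdh5*, *Pecam1* or *Plvap*. Those of *Cldn5* and *Kdr*, past 2-fold between days in CD45-negative cells, and of *Tie1* are printed below. The 250 bases before the transcript start are printed 5′ to 3′ on the gene's strand, and capitals mark GGAA or its reverse complement TTCC, the core letters bound by ETS factors, a family that includes regulators of endothelial genes. *Cldn5* lies at chr16:18776597-18776846 (plus strand), *Kdr* at chr5:75978456-75978705 (minus strand) and *Tie1* at chr4:118489850-118490099 (minus strand).

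Cldn5: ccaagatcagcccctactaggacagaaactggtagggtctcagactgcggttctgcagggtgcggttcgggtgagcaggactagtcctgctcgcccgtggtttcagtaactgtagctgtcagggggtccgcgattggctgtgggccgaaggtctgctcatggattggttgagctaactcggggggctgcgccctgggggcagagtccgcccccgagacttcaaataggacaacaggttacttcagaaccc

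Kdr: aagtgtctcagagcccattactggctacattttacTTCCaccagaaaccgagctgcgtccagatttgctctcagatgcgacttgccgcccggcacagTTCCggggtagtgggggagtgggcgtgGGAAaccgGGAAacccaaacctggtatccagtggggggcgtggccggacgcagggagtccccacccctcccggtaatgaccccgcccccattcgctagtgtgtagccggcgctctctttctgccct

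Tie1: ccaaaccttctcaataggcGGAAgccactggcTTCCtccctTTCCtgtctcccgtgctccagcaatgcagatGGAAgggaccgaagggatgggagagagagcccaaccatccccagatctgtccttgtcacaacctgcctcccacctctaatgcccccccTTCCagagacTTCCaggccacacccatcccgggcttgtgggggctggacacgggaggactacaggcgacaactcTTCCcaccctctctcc

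The letters stood 7 times before *Tie1*, 4 times before *Kdr*, *Flt1* and *Emcn*, 6 times before *Stab2* and 0 times before *Cldn5*. Of all 32851 promoters of the table, 93.4% held at least 1 match in the same window and 33.4% held 4 or more, with a median of 3. A match is a string of letters, not a measured site, and no match says only that the letters are not in this window.

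Levels are log2 signals minus each array's own 75th percentile, so 0 is a fairly bright probe and negative values are dimmer. The scanner software's flag says whether a spot is well above background. The lowest level so called was -3.95 for LSK cells at day 0, -4.12 for LSK cells at day 10, -3.15 for CD45-negative cells at day 0 and -4.24 for CD45-negative cells at day 10. Of the 10 genes, 9 were above background in LSK cells at day 0, 9 in LSK cells at day 10, 9 in CD45-negative cells at day 0 and 7 in CD45-negative cells at day 10. The share of all probes above background, noncoding ones included, ran from 47.6% in CD45-negative cells at day 0 to 56.6% in LSK cells at day 10. Of the 29353 named genes, 15312 were above background in the former and 17460 in the latter. In these sorted bulk samples fewer cells of a type and less RNA per cell cannot be told apart.

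**Figure D1:**
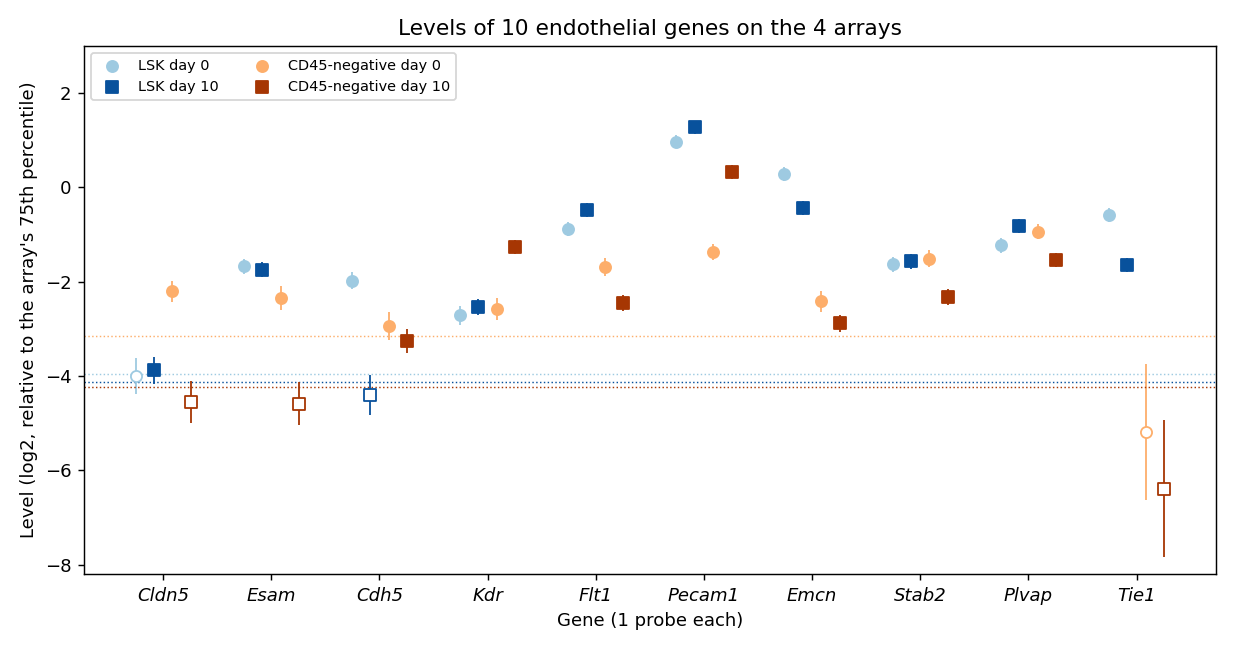
Levels of the 10 genes on the 4 arrays, in log2 relative to the array's 75th percentile, 1 probe per gene. Bars are spot errors, open symbols are not well above background, and dotted lines give each array's lowest level above background. *Pecam1*, *Emcn*, *Tie1*, *Esam* and *Flt1* sit higher in LSK cells at both days, and *Tie1* is open in both CD45-negative samples.

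The genes do not mark the CD45-negative sort apart from the LSK sort. The median level of the 10 was -2.27 in CD45-negative cells at day 0 and -2.67 at day 10, against -1.43 and -1.61 in LSK cells at day 0 and day 10. *Tie1* was not well above background in either CD45-negative sample. The set is therefore described gene by gene, and no endothelial content is read from it.

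In CD45-negative cells, *Kdr* and *Pecam1* were higher at day 10 than at day 0, and *Cldn5* and *Esam* were lower. The other 5 compared genes differed by less than 2-fold, all towards lower values, and *Tie1* could not be compared. That is 2 higher and 2 lower of 9 compared. Among all 16437 genes compared, 24.2% were higher by 2-fold or more and 20.2% lower by as much, so the shares of the 10 genes are close to the background. Their median difference was -0.59 on the log2 scale, against 0.20 for all genes compared. A difference is called measured where the probe was above background on both arrays, and given as a bound ("at least") where no probe of the gene was above background on the darker array.

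In LSK cells no member was at least 2-fold higher at day 10, and *Cdh5* and *Tie1* were lower. Of all 17810 genes compared, 1.81% were higher by 2-fold or more and 3.57% lower by as much. The median difference of the 10 genes was 0.07, against 0.00 for all genes.

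**Figure D2:**
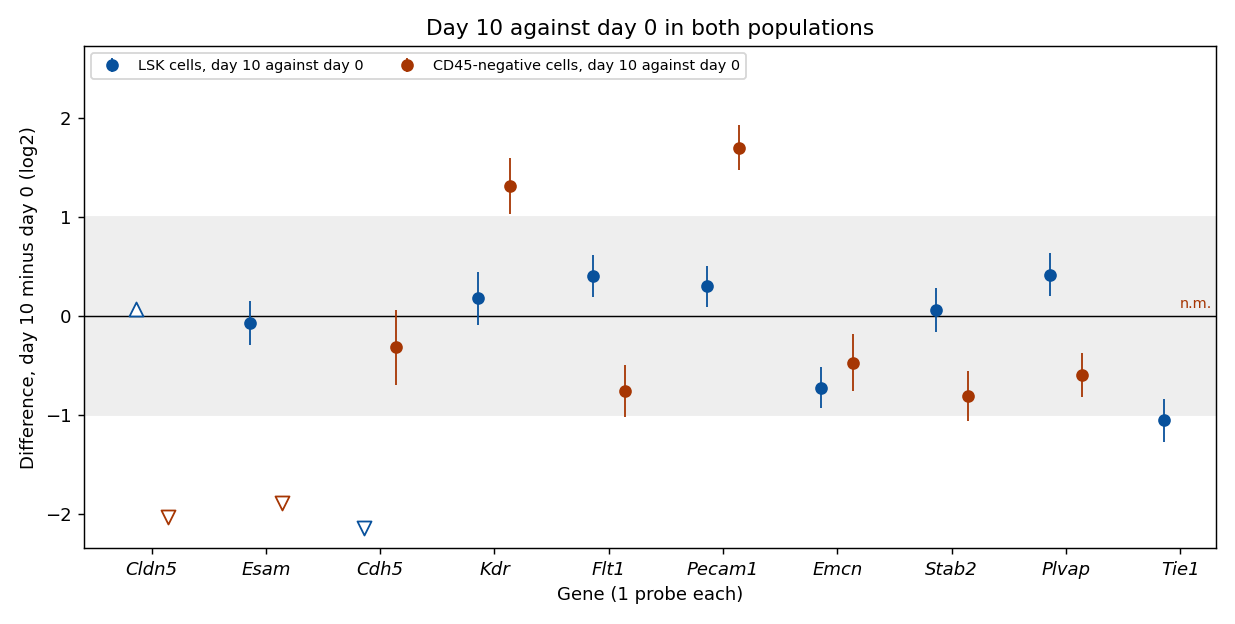
Day 10 minus day 0 (log2) for each gene in LSK and CD45-negative cells. Circles with bars are measured differences with their spot errors, open triangles are bounds pointing the way of the difference, n.m. means not measurable, and the grey band is the range within 2-fold. *Kdr* (1.31) and *Pecam1* (1.70) lie above the band in CD45-negative cells, and *Tie1* (-1.05) lies just below it in LSK cells.

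Among the junction genes, *Cldn5* encodes claudin-5, the main claudin of endothelial tight junctions. Its level was -4.00 in LSK cells at day 0, -3.88 in LSK cells at day 10, -2.20 in CD45-negative cells at day 0 and -4.55 in CD45-negative cells at day 10. It was above background in LSK cells at day 10 and CD45-negative cells at day 0, and clearly so only in the latter. In CD45-negative cells it was at least 4.10-fold lower at day 10 than at day 0. *Cldn5* was at least 3.36-fold lower in LSK than in CD45-negative cells at day 0, the only member past 2-fold in that direction at that day.

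*Esam* encodes an adhesion molecule of endothelial tight junctions and platelets. Its level was -1.67 in LSK cells at day 0, -1.74 in LSK cells at day 10, -2.34 in CD45-negative cells at day 0 and -4.58, below background, in CD45-negative cells at day 10. In LSK cells the 2 days lay 0.07 apart, less than the spot error. In CD45-negative cells the gene was at least 3.72-fold lower at day 10. The LSK level was above the CD45-negative level by 0.67 on the log2 scale at day 0 and by at least 2.49 (5.63-fold) at day 10. Without *Esam*, which the spot files name differently, 1 of 8 genes was lower in CD45-negative cells at day 10.

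*Cdh5* encodes VE-cadherin, the cadherin of endothelial adherens junctions. Its brighter probe stood at -1.98 in LSK cells at day 0, -4.40 in LSK cells at day 10, -2.94 in CD45-negative cells at day 0 and -3.26 in CD45-negative cells at day 10. It was not above background in LSK cells at day 10, where it was at least 4.42-fold lower than at day 0. The difference of -0.32 between days in CD45-negative cells was smaller than its spot error of 0.38. The second *Cdh5* probe was not above background on any of the 4 arrays. With the probes averaged, the LSK difference was a bound of -0.71, limited by the lowest level above background in LSK cells at day 10.

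*Pecam1* encodes the adhesion molecule CD31 of cell borders. Its level was 0.97 in LSK cells at day 0, 1.27 in LSK cells at day 10, -1.37 in CD45-negative cells at day 0 and 0.32 in CD45-negative cells at day 10. It was above background on all 4 arrays, and the CD45-negative sample of day 0 was the lowest. In CD45-negative cells *Pecam1* was 3.24-fold higher at day 10 (1.70 on the log2 scale, spot error 0.23). The LSK level was 5.09-fold above the CD45-negative level at day 0 and 0.95 above it on the log2 scale at day 10.

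Among the receptors, *Kdr* encodes VEGF receptor 2, the main signalling receptor for VEGF-A. Its level was -2.71 in LSK cells at day 0, -2.53 in LSK cells at day 10, -2.58 in CD45-negative cells at day 0 and -1.26 in CD45-negative cells at day 10. Only the last sample stood apart, and the first 3 differed by less than their spot errors. In CD45-negative cells *Kdr* was 2.48-fold higher at day 10 (1.31, spot error 0.28). At day 10 it was 2.41-fold lower in LSK than in CD45-negative cells, the only member past 2-fold in that direction.

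*Flt1* encodes VEGF receptor 1, which binds VEGF-A tightly and also occurs as a soluble form. Its brighter probe stood at -0.88 in LSK cells at day 0, -0.48 in LSK cells at day 10, -1.69 in CD45-negative cells at day 0 and -2.45 in CD45-negative cells at day 10. At day 0 the LSK level was 0.81 above the CD45-negative level on the log2 scale. The day difference was 0.40 in LSK cells and -0.76 in CD45-negative cells, each within 2-fold and beyond its spot error. At day 10 the LSK level was 3.92-fold above the CD45-negative level. The second *Flt1* probe was above background only in LSK cells at day 10, at -3.63.

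*Tie1* encodes an orphan receptor that modulates angiopoietin signalling through its partner Tek. Its level was -0.59 in LSK cells at day 0, -1.65 in LSK cells at day 10, and below background at -5.19 and -6.39 in CD45-negative cells at day 0 and day 10. It was above background in LSK cells at each day and in CD45-negative cells at neither. In LSK cells *Tie1* was 2.08-fold lower at day 10 (-1.05, spot error 0.21), just past the 2-fold threshold. It was at least 5.90-fold higher in LSK cells at day 0 and at least 6.03-fold higher at day 10.

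Among the surface and sinusoid genes, *Emcn* encodes endomucin, a sialomucin of venous and sinusoidal endothelium. Its level was 0.28 in LSK cells at day 0, -0.44 in LSK cells at day 10, -2.41 in CD45-negative cells at day 0 and -2.88 in CD45-negative cells at day 10. The LSK level was above the CD45-negative level 6.47-fold at day 0 and 5.43-fold at day 10. Between days *Emcn* differed by -0.72 in LSK cells and -0.47 in CD45-negative cells, both within 2-fold.

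*Stab2* encodes stabilin-2, the scavenger receptor for hyaluronan on sinusoidal endothelium. Its level was -1.63 in LSK cells at day 0, -1.57 in LSK cells at day 10, -1.51 in CD45-negative cells at day 0 and -2.32 in CD45-negative cells at day 10. The first 3 samples differed by less than their spot errors, and the last was lower by 0.81 than CD45-negative cells at day 0. *Plvap* encodes the protein of the diaphragms in endothelial pores and vesicles. Its level was -1.23 in LSK cells at day 0, -0.81 in LSK cells at day 10, -0.94 in CD45-negative cells at day 0 and -1.54 in CD45-negative cells at day 10. The day difference of *Plvap* was 0.42 in LSK cells and -0.59 in CD45-negative cells, both within 2-fold. At day 10 LSK cells were 0.75 above CD45-negative cells for *Stab2* and 0.73 above them for *Plvap*, and at day 0 the differences were -0.12 and -0.29.

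LSK cells were compared with CD45-negative cells at each day. At day 0, *Pecam1*, *Emcn* and *Tie1* were at least 2-fold higher in LSK cells and *Cldn5* was lower, of 10 compared. Among all 16849 genes compared, 23.0% were at least 2-fold higher in LSK cells and 19.0% lower. At day 10, *Esam*, *Flt1*, *Emcn* and *Tie1* were higher in LSK cells and *Kdr* was lower, of 10 compared, against 12.9% higher and 12.9% lower among 18016 genes. The median difference of the 10 was 0.74 at day 0 and 0.85 at day 10, against 0.14 and 0.06 for all genes compared. The 4 comparisons share arrays in pairs, so their values are not independent.

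**Figure D3:**
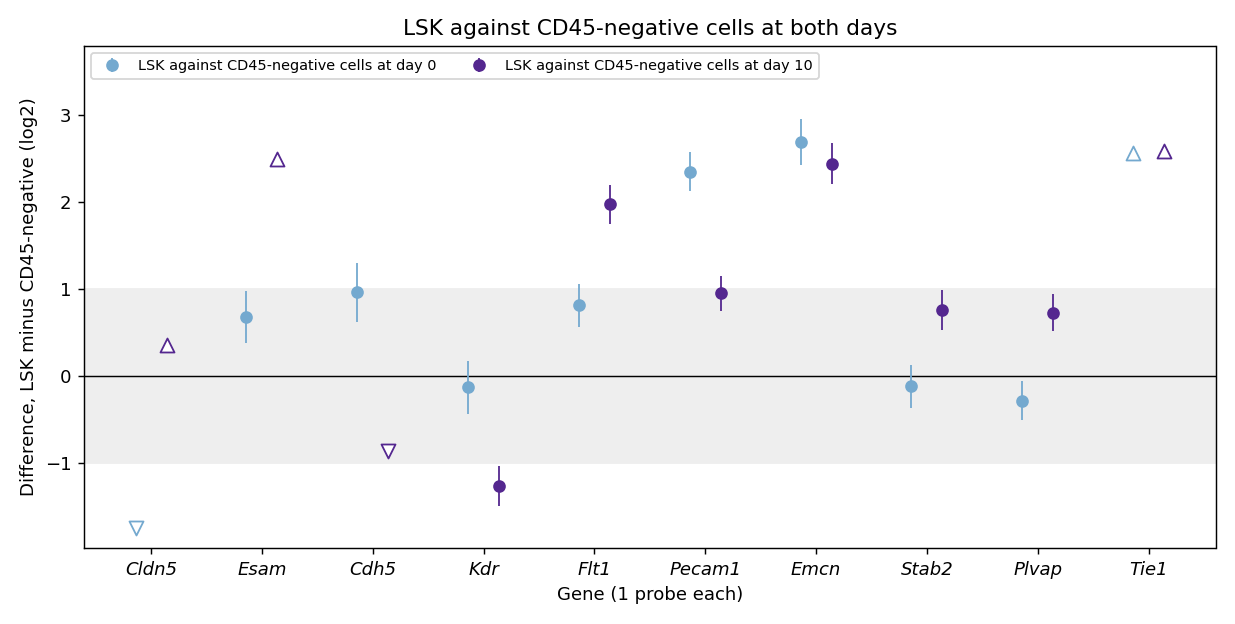
LSK minus CD45-negative level (log2) for each gene at day 0 and day 10. Circles with bars are measured differences with spot errors, open triangles are bounds, and the grey band is the range within 2-fold. *Emcn* (2.69 and 2.44) and *Tie1* (at least 2.56 and 2.59) lie above the band at both days, while *Kdr* (-1.27) lies below it at day 10.

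The direction of these differences depends on what the arrays are scaled to. Scaling to the Agilent spike-in RNAs instead of the 75th percentile moved the median of all genes by 3.26 for the days in CD45-negative cells, by -0.20 for the days in LSK cells, and by 1.76 and -1.70 for LSK against CD45-negative cells at day 0 and day 10. On that scale 7 of the 7 comparable members were at least 2-fold higher in CD45-negative cells at day 10 and 0 were lower, the 5 members with small negative differences included. *Cldn5* and *Esam*, lower on the 75th-percentile scale and below background at day 10, could not be compared on the spike-in scale. Their lower level was thus not kept there. *Kdr* and *Pecam1* kept their higher level at day 10 in CD45-negative cells on every scale tried. The spike-in scale adds 1 constant to every gene of a comparison, so the order of the members is the same on both scales. On the spike-in scale *Pecam1*, *Stab2* and *Plvap* turned lower in LSK than in CD45-negative cells at day 10. *Flt1* (0.27) and *Emcn* (0.74) stayed higher in LSK cells there, but within 2-fold. *Esam* (at least 0.79) and *Tie1* (at least 0.89) also stayed higher. These values are bounds, so whether *Esam* and *Tie1* were still past 2-fold is not known. Of the genes called in CD45-negative cells between days, 54.5% were higher on the 75th-percentile scale, 98.9% on the spike-in scale and 43.8% on the scale of 11 housekeeping genes. For the days in LSK cells the share was 33.6%, against 16.8% with the spike-ins. For LSK against CD45-negative cells at day 0 it was 54.8%, against 95.0% with the spike-ins. At day 10 it was 50.02%, against 1.28% with the spike-ins.

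Correcting the raw signals with the normexp model, which shrinks dim probes, left neither *Kdr* (0.28) nor *Pecam1* (0.88) past 2-fold between days in CD45-negative cells. *Cldn5* (-1.25) and *Esam* (-1.20) stayed past it. In LSK cells *Tie1* (-0.66) then differed by less than 2-fold between days, and the bound of *Cdh5* (-0.74) no longer reached 2-fold. Between the sorts the day 10 difference of *Kdr* (-0.73) lay within 2-fold. The day 0 bounds of *Cldn5* (-0.79) and *Tie1* (0.81) no longer reached 2-fold. A bound short of 2-fold does not show that the difference itself was smaller.

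Genes of the same pathways were counted from lists of related genes, some of which share members. Their counts stand beside 24.2% higher, 20.2% lower and a median of 0.20 over all genes compared between days in CD45-negative cells, and 1.81% higher and 3.57% lower in LSK cells. Among ligands and partner receptors of the VEGF and angiopoietin systems, 2 were at least 2-fold higher and 3 lower of 12 compared between days in CD45-negative cells, with a median of -0.02. *Vegfa*, the ligand of both *Kdr* and *Flt1*, was 2.78-fold higher at day 10 and *Plxnd1*, a semaphorin receptor, 2.41-fold higher. Of the 3 other *Vegfa* probes, 2 differed by less than 2-fold. *Vegfd*, a ligand best known in lymphatic growth, was 18.8-fold lower, from 0.93 to -3.30. *Ptprb*, the phosphatase that acts on the angiopoietin receptor, was at least 3.90-fold lower. In LSK cells 0 of 10 compared genes of this list were past 2-fold either way.

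Of the junction partners 3 were higher and 3 lower of 13 compared, with a median of 0.22. *Icam2*, an adhesion molecule that endothelium shares with leukocytes and platelets, was 3.09-fold higher at day 10. *Cldn3* was at least 3.98-fold lower and *Cd99l2* 2.49-fold lower. In LSK cells 1 of 19 was higher and 0 lower.

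Of transcription factors of endothelium 10 were higher and 5 lower of 18 compared, with a median of 1.20. The rest of the 26 listed could not be compared. Their median difference, LSK minus CD45-negative, was 0.25 at day 0 and 0.08 at day 10, against 0.14 and 0.06 for all genes compared. These factors therefore did not mark the CD45-negative sort, and the part of blood cells in their day differences was not tested. *Ets2* was 4.94-fold higher and *Elk3* 3.94-fold higher. *Tal1* was 22.7-fold lower and *Lmo2* 12.2-fold lower, and both also act in red cell development. In LSK cells 0 were higher and 1 lower of 19.

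Of other pan-endothelial genes 5 were higher and 9 lower of 24 compared, with a median of -0.11. The rest of the 38 listed could not be compared, so the counts leave out the dimmest genes of the list. *Hspa12b*, a heat shock protein relative found in endothelium, was 3.82-fold higher. *Vwf*, which encodes von Willebrand factor of endothelium and platelets, was 17.2-fold lower, and *Cavin2*, a caveola component, was 6.10-fold lower. In LSK cells 2 were higher and 3 lower of 28.

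The sinusoidal list had 3 higher and 8 lower of 15 compared, and its median of -1.49 was the lowest of the 7 vessel lists. The rest of its 22 genes could not be compared. Some of its genes also stand in the platelet and macrophage marker lists used below. The part of those cells in these counts was not tested, and no change of sinusoidal endothelium is read from them. *Dnase1l3*, a secreted nuclease, was 2.69-fold higher and *Il6st*, the shared receptor chain of the interleukin-6 family, 2.13-fold higher. *Cd36*, a fatty acid receptor, was 51.7-fold lower, and *Ackr1*, the Duffy receptor of venules and red cells, 29.4-fold lower. In LSK cells 4 genes of this list were higher and 1 lower of 15.

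The arterial list had 1 higher and 2 lower of 9, with a median of 0.31. *Ly6c1* was 2.72-fold higher, *Mgp* 11.01-fold lower and *Sox17* 2.51-fold lower, and in LSK cells 0 of 9 were past 2-fold either way. Of vessel-derived factors for blood stem cells 2 were higher and 1 lower of 7, with a median of 0.50. *Il33* was at least 3.83-fold higher and *Tnfsf10* 3.52-fold higher, and *Cxcl12*, the chemokine that retains stem cells and is made by reticular cells above all, was 8.90-fold lower. In LSK cells 1 was higher and 0 lower of 8. On the spike-in scale the medians of all 7 vessel lists were positive, from 2.56 for the sinusoidal list to 4.42 for the transcription factors, and *Cd99l2*, *Cavin2*, *Sox17* and *Cxcl12* turned higher at day 10. *Cldn3* and *Ptprb*, below background at day 10, could then not be compared, while *Vegfd*, *Tal1*, *Lmo2*, *Vwf*, *Cd36*, *Ackr1* and *Mgp* stayed lower.

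With normexp correction, in log2 differences taken without the detection rule, *Plxnd1* (0.48), *Dnase1l3* (0.62), *Il6st* (0.59), *Il33* (0.42), *Tnfsf10* (0.90), *Cd99l2* (-0.96) and *Sox17* (-0.97) were no longer past 2-fold. *Vegfd* (-2.80), *Ptprb* (-1.32), *Cldn3* (-1.24), *Hspa12b* (1.16), *Vwf* (-3.33), *Cavin2* (-1.61), *Cd36* (-4.94), *Ackr1* (-4.26) and *Mgp* (-2.13) stayed past it with folds smaller by over 1.5 times. The sinusoidal list and the vessel-derived factors then had 0 genes higher, and the medians of the junction partners (-0.35) and the arterial list (-0.25) turned negative.

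**Figure D4:**
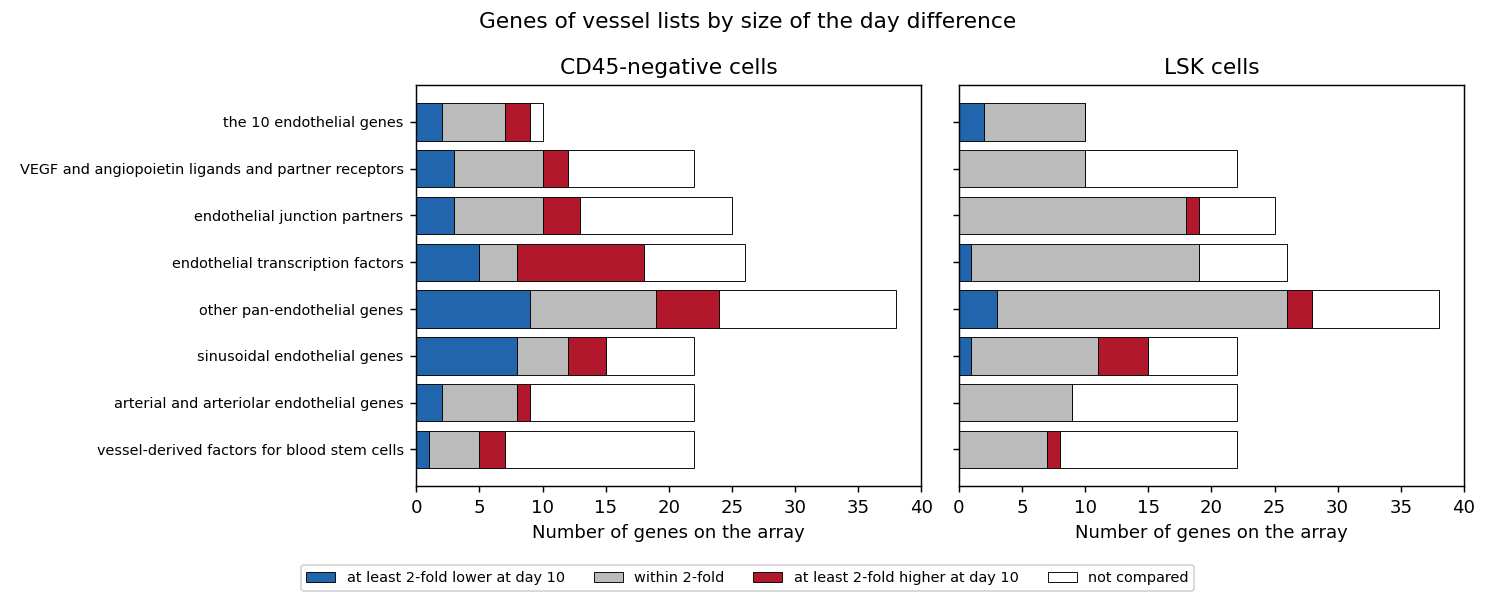
Number of genes on the array in the 10-gene set and 7 vessel lists, by size of the day difference, for CD45-negative cells (left) and LSK cells (right). White marks genes that could not be compared. In CD45-negative cells the transcription factors have 10 higher and 5 lower, and the sinusoidal list 3 higher and 8 lower.

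Markers of other cells moved between days in the same CD45-negative samples. *Ptprc*, the gene of CD45 itself, was at 3.10 in CD45-negative cells at day 0 and 5.58 at day 10, against 4.18 and 4.25 in LSK cells. All 12 compared erythroid genes were at least 2-fold lower at day 10 (median -4.51), and 12 of 16 megakaryocyte and platelet genes were lower and 2 higher (median -2.18). All 13 compared T and NK cell genes were higher (median 4.11), as were 12 of 14 B and plasma cell genes (median 2.36) and 9 of 14 neutrophil genes, with 1 lower. Of 15 reticular and mesenchymal genes 14 were lower and 0 higher (median -2.68). Monocyte and macrophage genes were 3 higher and 3 lower of 11, pericyte and smooth muscle genes 1 higher and 2 lower of 7, and stem and progenitor genes 4 higher and 1 lower of 10. On the spike-in scale the erythroid median stayed negative (-1.25), and those of the platelet list (0.72) and the reticular list (0.11) turned positive. The members that differed, *Pecam1*, *Kdr*, *Cldn5* and *Esam*, include genes that some of these cells also make, and the part of these cells in the differences was not tested.

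Levels of these lists also differed between the sorts. The erythroid list had a median level of 6.52 in CD45-negative cells at day 0 and 2.56 at day 10, against 0.36 and -0.18 in LSK cells. The list of stem and early progenitor cells had a median of 1.70 in LSK cells at day 0 and 0.45 at day 10, against -3.21 and -3.14 in CD45-negative cells. *Kit* stood at 5.04, 4.65, 1.52 and 1.94 in LSK cells at day 0 and day 10 and in CD45-negative cells at day 0 and day 10. *Ly6a*, the gene of Sca-1, which endothelium also makes, stood at 2.98, 2.86, 0.20 and 3.44 in the same order. The part of these cells in the higher LSK levels of *Pecam1*, *Emcn*, *Tie1*, *Esam* and *Flt1* was not tested.

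**Figure D5:**
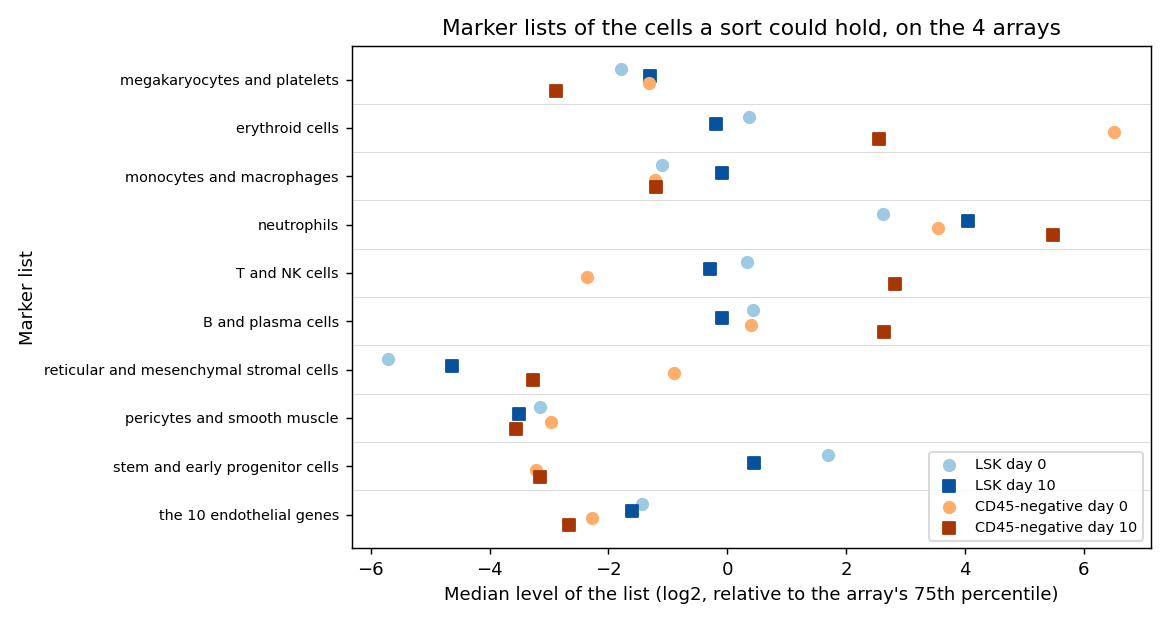
Median level (log2, relative to the array's 75th percentile) of each marker list on the 4 arrays. The 10 endothelial genes span -2.67 to -1.43, a narrower range than the erythroid list, the widest, which spans -0.18 to 6.52. The pericyte and smooth muscle list (-3.56 to -2.97) and the monocyte and macrophage list (-1.21 to -0.09) span less than the 10 genes.

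The 10 genes did not share a single pattern over the arrays. Levels not above background were set to the array's lowest level above background, and each gene's levels were then centred on their mean over the 4 arrays and set against the median centred profile of the 10. *Flt1* lay nearest to it, at a Euclidean distance of 0.63 log2 units, and *Kdr* farthest, at 2.09. Of 13555 genes compared over the same 4 arrays, *Tmem144*, *Itga3*, *P4ha1*, *Olfr611* and *Samd10* had the nearest profiles, at distances of 0.22 to 0.23. These were picked as the smallest distances of that search, so they are not set against the distances of the 10 genes. *Tmem144* and *Itga3* were above background on 3 of the 4 arrays, so their nearness rests in part on a substituted level. With 4 points per profile this likeness is a description of these arrays.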

How the data were processed

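Gene expression was measured on 4 Agilent 1-colour mouse arrays (Cy3), 1 per group. Per the file headers, the scans were processed with Agilent Feature Extraction 10.5.1.1, and the deposited spot signals are intensity values with background subtracted. Deposited flags for detection, saturation, outliers and control type are neither signals nor ratios and count as other values. The authors' deposited series matrix is on the log2 scale and, for at least 99.9% of each array's probes, differs from the log2 of the processed signal by a fixed shift (tolerance 0.001). The array design is annotated to mm9 per the file headers, and its coordinates were not used.

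Control and outlier spots were removed, signals were averaged per probe on the log2 scale, and each array was set to its 75th percentile. The probe with the highest mean represents a gene. RefSeq accessions gave current symbols for 28136 of 40628 probes (69.3%); 20679 noncoding probes were left out. Saturated member probes numbered 0, as did outlier member spots. A bound uses the higher of the dark array's lowest level above background and the dim probe's own level. The 2-fold threshold is a size, not a test. The calling step was tested on simulated data.

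The 10 genes, the lists and the rule for named genes were chosen with earlier results of these data known. The rule names all members, from each list up to 2 genes each way with the largest day difference past 2-fold in CD45-negative cells, *Ptprc*, *Kit* and *Ly6a*, and the 5 genes nearest the members' median profile. A gene that the rule names is not reported here. Alternatives were normexp correction (offset 50) and quantile normalization in limma 3.58.1 (R 4.3.3), other percentiles and shifts (5 spike-in probes; 11 of 12 housekeeping genes), the series table, the mean over probes, other detection rules and a 3-fold threshold. The number of arrays limits the precision.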

Additional observations from a re-analysis of the deposited data

Results flagged for a closer look

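*Flt1* and *Plvap* moved in opposite directions between days in the 2 sorts, each beyond its spot error. For *Flt1*, the day difference in CD45-negative cells (-0.76) minus that in LSK cells (0.40) was -1.16 on the log2 scale. For *Plvap*, it was -1.01 (-0.59 and 0.42). With 1 array per group the difference between the sorts was not tested, and on the spike-in scale both genes were higher at day 10 in both sorts.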

How the results depend on the processing

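No paired analysis was possible because each group has 1 array. For the days in CD45-negative cells, the count of members at least 2-fold higher (2) was 0 with normexp, 7 with the spike-in shift and 1 at 3-fold, and the count lower (2) was 0 with the spike-in shift, 0 where both arrays had to be above background and 1 without *Esam*, an alternative added after seeing the data. For the days in LSK cells, the count lower (2) was 0 with normexp and 1 each with the housekeeping shift, the mean over probes, detection on both arrays and 3-fold. For LSK against CD45-negative cells at day 0, the count lower (1) was 0 with normexp, the spike-in shift and detection on both arrays, and the count higher (3) was 9 with the spike-in shift. At day 10, the count higher (4) was 0 with the spike-in shift and 2 with detection on both arrays, and the count lower (1) was 0 with normexp and at 3-fold, and 2 with quantile normalization, the spike-in shift and no detection filter. The other 66 counts under alternatives stayed within 1.5 times. The members' median ran from -0.81 to 2.79 (CD45-negative days), -0.13 to 0.13 (LSK days), -0.09 to 2.57 (day 0) and -0.75 to 0.9998 (day 10). The cause of each move was not tested. In CD45-negative cells at day 0 the 9 members above background lay 0.21 to 2.21 log2 units over the lowest such level, which limits folds against that array.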
